A study of Mus musculus with 3 samples.

Results

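Complement is a cascade of plasma and tissue proteins that tags particles for uptake and calls in immune cells. The genes described here are 8 complement components and receptors, chosen by symbol from a deposited table of 24067 mouse genes: C1qa, C1qb, C1qc, C3, Cfb, Cfp, C3ar1 and C5ar1. All 8 were found in the table, and all 8 had a mean of at least 1 FPKM (fragments counted on a gene, divided by transcript length and by the size of the library), as did 10358 genes in all. The libraries came from primary mouse pre-osteoclasts, the mononuclear precursors that later fuse into bone-resorbing osteoclasts. All cells had been cultured with MCSF and RANKL for 2 days and carried a short hairpin RNA (shRNA). The labels give the tissue as bone and the control cells as WT, and they do not say how many mice or which hairpins were used. The 3 groups were cells with Ift88 shRNA under orbital shear stress (sheared Ift88 shRNA), cells with control shRNA under orbital shear stress (sheared control), and cells with control shRNA left static (static control). Shear, fluid flow made by swirling the dish, lasted 24 hours. Each group held 1 library, so no difference below has a replicate check and no p-value is given. Ift88 shRNA without shear was not analysed here, so what the hairpin does without flow and what it does only under flow cannot be told apart.

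Macrophages and their relatives are a main source of C1q. C1q is assembled from A, B and C chains, the products of C1qa, C1qb and C1qc, and binds antibody complexes and dying cells to start the classical pathway. All pathways meet at C3, which is cut into C3b, a tag for uptake, and C3a, a signalling peptide; factor B (Cfb) forms the enzyme that cuts more C3 in the alternative pathway, and properdin (Cfp) stabilises that enzyme. C3a is sensed by the receptor encoded by C3ar1, and C5a, released further down the cascade, by the receptor encoded by C5ar1. In bone, osteoclast-lineage cells are known to make C3, and C3a from mouse osteoclasts is known to favour osteoblast differentiation.

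The upstream DNA is shown for the component whose level differed most with Ift88 shRNA among the abundant members, C3, and for the neighbouring genes C1qb and C1qc, which were lower in both sheared libraries. C1qa, C3ar1 and Cfb were also lower in both, and no upstream sequence was available for C1qa and Cfb. Each sequence is the 250 bases before the transcript start used in a RefSeq promoter table on GRCm38.p6, read 5′ to 3′ on the minus strand, the strand of the gene. For C3 and C1qb that start is the outer bound of the gene, and for C1qc it lies 22 bases inside the bound, at 136892914. C3 lies at chr17:57228137-57228386, C1qb at chr4:136886201-136886450 and C1qc at chr4:136892915-136893164. Capitals mark a C/EBP-type match (TTGCNNAA) in C3 and a PU.1-type match (GAGGAAGT, here on the opposite strand) in C1qc.
C3: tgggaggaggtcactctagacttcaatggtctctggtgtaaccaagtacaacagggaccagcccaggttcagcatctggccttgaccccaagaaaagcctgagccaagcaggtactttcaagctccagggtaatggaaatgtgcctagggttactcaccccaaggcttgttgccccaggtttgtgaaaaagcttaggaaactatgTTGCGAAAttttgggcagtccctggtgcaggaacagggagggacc
C1qb: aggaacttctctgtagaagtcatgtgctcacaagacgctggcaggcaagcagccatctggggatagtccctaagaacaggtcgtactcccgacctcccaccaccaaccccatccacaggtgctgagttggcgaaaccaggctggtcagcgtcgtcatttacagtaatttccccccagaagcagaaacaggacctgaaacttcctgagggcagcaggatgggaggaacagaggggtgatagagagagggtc
C1qc: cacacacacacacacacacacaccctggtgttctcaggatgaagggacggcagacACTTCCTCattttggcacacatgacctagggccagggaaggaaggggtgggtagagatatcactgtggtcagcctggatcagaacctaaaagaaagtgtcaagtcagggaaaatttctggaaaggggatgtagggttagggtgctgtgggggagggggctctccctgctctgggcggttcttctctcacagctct

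C/EBP factors and PU.1 are transcription factors of myeloid cells. The C3 match began 45 bases before the transcript start used there, and the C1qc match 195 bases before its own. Over the 32851 windows of the same length in the RefSeq table, 9.56% held the C/EBP-type letters and 2.44% the PU.1-type letters on either strand. A search for a GAS-type motif (TTCNNNGAA), letters bound by interferon-activated STAT factors, found no match in the windows of the 6 members with an entry, and 7.02% of all windows held it. A match describes the letters and is not evidence of binding.

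The steps between low FPKM values gave an estimated depth of 35400000 fragments in the sheared Ift88 shRNA library, 35500000 in the sheared control and 35100000 in the static control. Ift88, which encodes a part of the transport machinery of the primary cilium, was at 1.197 FPKM in the sheared Ift88 shRNA library, 2.71 in the sheared control and 2.98 in the static control, so it was low in the library labelled as its knockdown. The brackets below are 95% Clopper-Pearson intervals of an FPKM ratio, computed from estimated fragments, and they cover counting error only. Differences between cultures of 1 group are not included in them and could not be measured. Counts of genes use log2 ratios taken after 1 was added to each FPKM, a scale that understates differences of low genes.

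Levels of the members spanned 2 orders of magnitude within each library. Cfp was the most abundant, at 393 FPKM in the sheared Ift88 shRNA library, 349 in the sheared control and 362 in the static control, which placed it 185th, 211th and 203rd of the 24067 genes. C1qc and C3ar1 came next, at 131 to 154 and 131 to 146 FPKM. In both sheared libraries the counting intervals of C1qc and C3ar1 overlapped, so their order is not resolved there, while in the static control C1qc was 1.06 times C3ar1 with intervals that did not overlap. C3 was always the fourth, and C1qa, C1qb and C5ar1 lay between 25.8 and 38.5 FPKM. C1qa and C1qb had overlapping intervals in both control libraries, and C1qa and C5ar1 did in the sheared Ift88 shRNA library. Cfb was the lowest, at 1.55 to 3.06 FPKM.

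**Figure D1:**
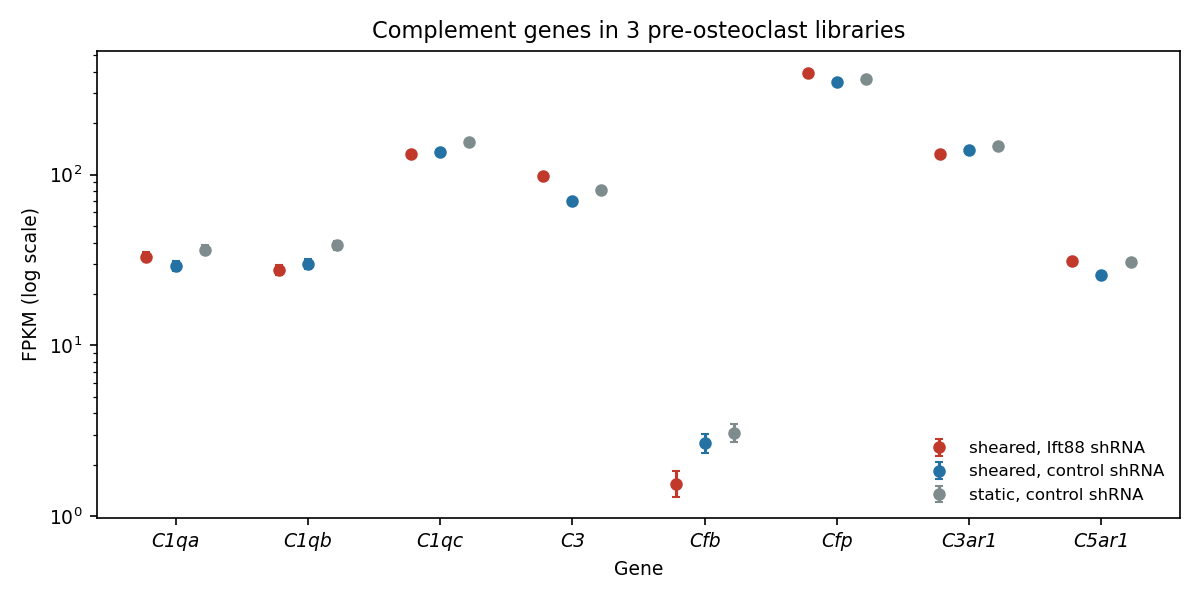
FPKM of the 8 complement genes (log axis) in the sheared Ift88 shRNA, sheared control and static control libraries, 1 library each; bars are 95% Poisson intervals from estimated fragments. Cfp stands highest at 349 to 393 FPKM and Cfb lowest, and the colour order differs between C3, highest with Ift88 shRNA, and Cfb, lowest with Ift88 shRNA.

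The first comparison asked what shear did to cells with control shRNA. All 8 complement genes were lower in the sheared control than in the static control, with ratios from 0.781 for C1qb to 0.965 for Cfp. Among all genes kept, 53.9% were lower in the same comparison. The median log2 ratio was -0.20 over the 8 members and -0.011 over all 10358 genes. At a call of at least 1.2-fold, 2 of 8 members, C1qa and C1qb, were lower and none higher, where 2.26% of all genes were that much lower and 1.94% that much higher. In bulk RNA, fewer cells of a type and less RNA per cell cannot be told apart.

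C1qb and C1qa had the shear ratios furthest from 1, although the intervals of C1qc, C3, C5ar1 and Cfb overlapped theirs. C1qb was at 30.0 FPKM in the sheared control and 38.5 in the static control, a ratio of 0.781 (0.716 to 0.851). Only 1.81% of genes kept were as far from equality in either direction. C1qa was at 29.1 and 36.3 FPKM in the same libraries, a ratio of 0.803 (0.733 to 0.878). C1qc was at 136 FPKM in the sheared control and 154 in the static control, a ratio of 0.880 (0.846 to 0.915), short of 1.2-fold. All 3 chain genes were therefore lower in the sheared control, with intervals below 1.

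C3 was at 69.9 FPKM in the sheared control and 81.2 in the static control, a ratio of 0.860 (0.839 to 0.881). Cfb was at 2.67 FPKM in the sheared control and 3.06 in the static control, a ratio of 0.874 whose interval of 0.730 to 1.04 includes 1. Cfp, at 349 and 362 FPKM, stood at 0.965 (0.945 to 0.985). None of these genes of the alternative pathway reached 1.2-fold. The interval of Cfb contains that of C3, so which of C3 and Cfb differed more is not resolved.

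The receptor genes differed in size of difference. C5ar1, the receptor that draws myeloid cells towards C5a, was at 25.8 FPKM in the sheared control and 30.7 in the static control, a ratio of 0.842 (0.794 to 0.893). C3ar1 was at 140 FPKM in the sheared control and 146 in the static control, a ratio of 0.958 (0.939 to 0.976). C3ar1 and Cfp were the members closest to equality in the shear comparison, and 57.6% and 64.7% of genes were as far from it.

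**Figure D2:**
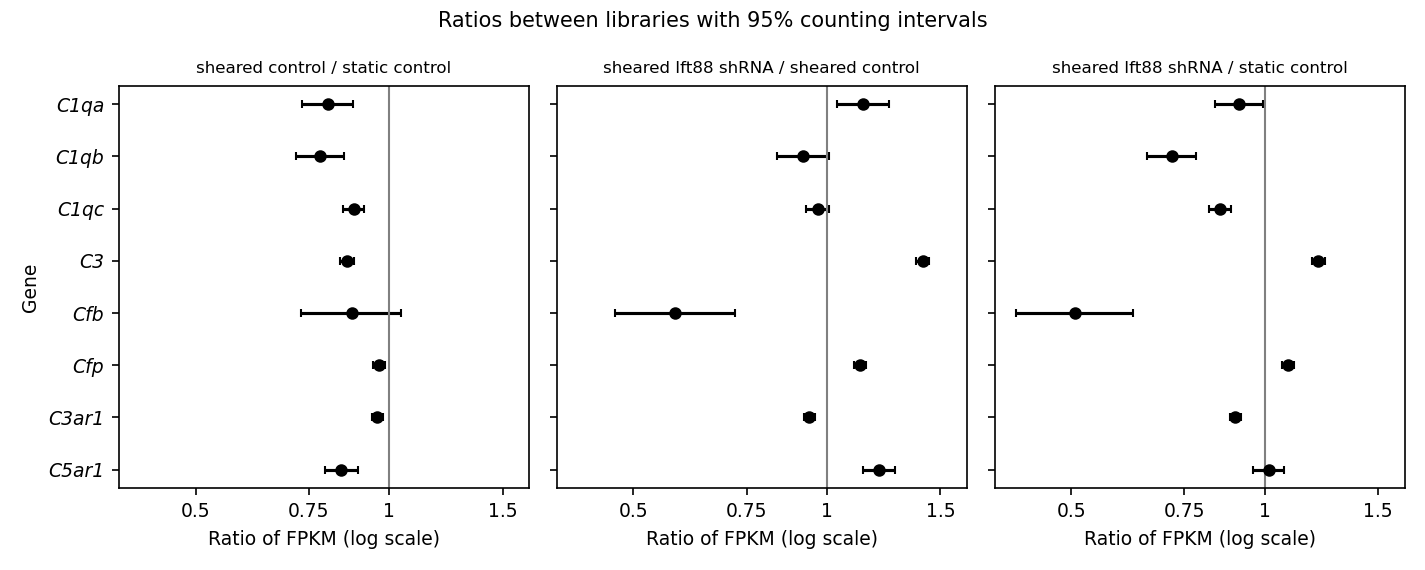
Ratio of FPKM (log axis) for each complement gene, with 95% counting intervals, in the shear comparison (left), the Ift88 shRNA comparison under shear (middle) and sheared Ift88 shRNA over static control (right). All points lie below 1 on the left, while C3 at 1.41 and Cfb at 0.580 lie apart on opposite sides in the middle.

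The second comparison asked what Ift88 shRNA did in sheared cells. C3 was higher and Cfb lower with Ift88 shRNA, and the other members differed by less than 1.2-fold on the scale with 1 added. The sheared control library enters this comparison and the one above, so a low value in it lowers the first ratio and raises the second. At that call, 1 of 8 members was higher and 1 of 8 lower, where 3.25% of all genes were that much higher and 2.29% that much lower. Over all genes that is 337 higher and 237 lower, and 455 higher and 190 lower when the libraries were scaled to an equal sum of FPKM. The median log2 ratio was 0.061 over the 8 members and 0.010 over all genes, with 4 members above 0 and 4 below.

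C3 (gene ID 12266, chromosome 17, 57203967 to 57228136 in GRCm38) was at 98.4 FPKM in the sheared Ift88 shRNA library, 69.9 in the sheared control and 81.2 in the static control. Its level with Ift88 shRNA was thus the highest of the 3. The ratio to the sheared control was 1.41 (1.38 to 1.44), from an estimated 17189 and 12241 fragments. C3 stood 46th from the highest among 10358 genes by log2 ratio (0.49), and 0.801% of genes were as far from equality.

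Cfb (gene ID 14962, chromosome 17, 34856374 to 34862514) was at 1.55 FPKM in the sheared Ift88 shRNA library, 2.67 in the sheared control and 3.06 in the static control. It was lowest with Ift88 shRNA, opposite to C3, whose protein the factor B enzyme cuts. The ratio to the sheared control was 0.580 (0.468 to 0.719), from an estimated 139 and 240 fragments, so the value is less precise than that of C3. By log2 ratio (-0.53) it stood 31st from the lowest. Its exons share 2246 bases with Gm20547, a longer gene annotated on the same strand in GENCODE M21, so fragments of that transcript cannot be told apart from those of Cfb.

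Cfp (gene ID 18636, chromosome X, 20925454 to 20931555) was at 393 FPKM in the sheared Ift88 shRNA library and 349 in the sheared control, and the ratio was 1.13 (1.10 to 1.15). Like C3, Cfp was highest in the sheared Ift88 shRNA library. Its difference was common, with 15.5% of genes as far from equality.

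The C1q chain genes gave ratios on both sides of 1 in the Ift88 shRNA comparison. C1qa was at 33.1 FPKM in the sheared Ift88 shRNA library and 29.1 in the sheared control, 1.14 times as high (1.04 to 1.25). C1qb was at 27.5 and 30.0 FPKM in the same libraries, a ratio of 0.917 whose interval of 0.835 to 1.01 includes 1. C1qc was at 131 and 136 FPKM, or 0.967 times (0.929 to 1.01). C1qa was higher, while the ratios of C1qb and C1qc had intervals that include 1.

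These genes (IDs 12259, 12260 and 12262 for C1qa, C1qb and C1qc) lie side by side on chromosome 4, within 18719 bases from 136880126 to 136898844 in GRCm38, although their chains enter C1q in equal numbers. Per length, C1qc was the most abundant chain gene in every library, at 3.97 times C1qa in the sheared Ift88 shRNA library, 4.67 times in the sheared control and 4.26 times in the static control. It made up 68.4%, 69.7% and 67.4% of the summed FPKM of the 3 chain genes in these libraries. C1qa over C1qb was 1.201 with Ift88 shRNA, against 0.969 in the sheared control and 0.943 in the static control. The summed FPKM of the 3 chain genes was 192 in the sheared Ift88 shRNA library, 195 in the sheared control and 229 in the static control, so both sheared libraries were below the static one.

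The receptor genes stood on opposite sides of 1. C5ar1 (gene ID 12273, chromosome 7, 16246743 to 16259540) was at 31.1 FPKM in the sheared Ift88 shRNA library and 25.8 in the sheared control, with a ratio of 1.204 (1.14 to 1.28), just short of the call on the scale with 1 added. C3ar1 (gene ID 12267, chromosome 6, 122847140 to 122856157) was at 131 and 140 FPKM, or 0.939 times (0.921 to 0.958). C3 was thus higher with Ift88 shRNA while the gene for the C3a receptor was slightly lower.

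**Figure D3:**
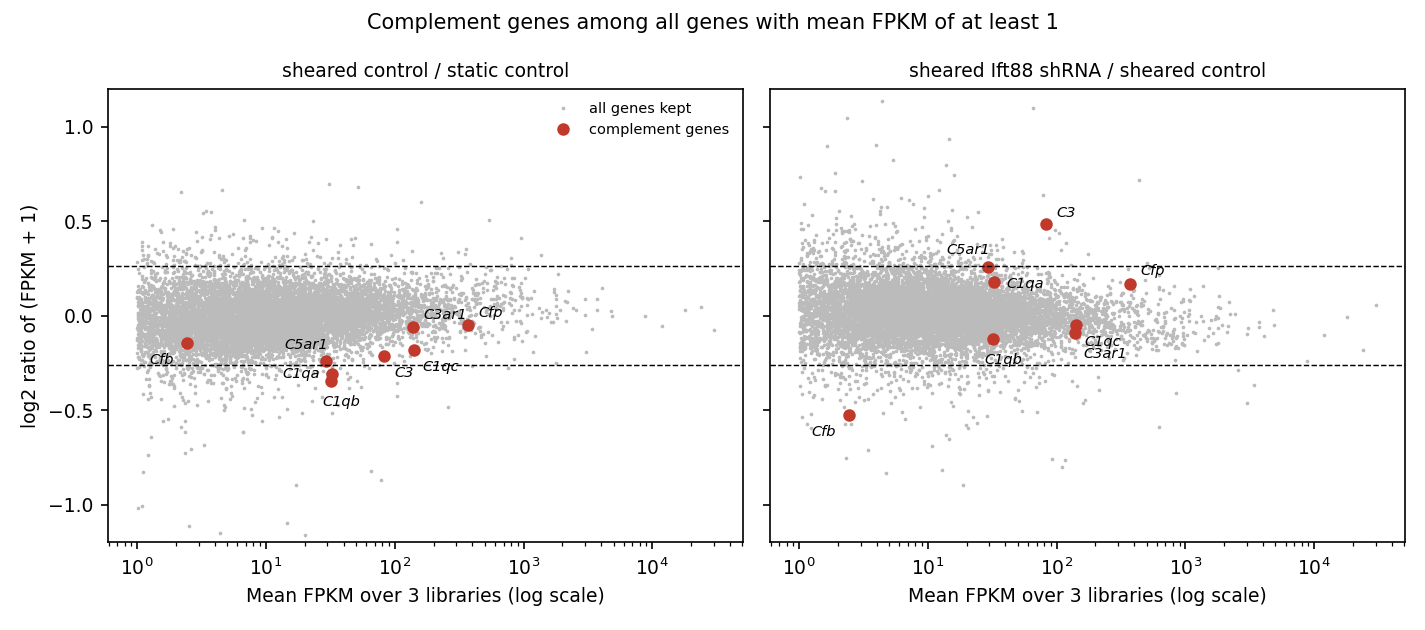
Log2 ratio of (FPKM + 1) against mean FPKM (log axis) for the genes kept (grey) and the complement genes (red), for shear (left) and Ift88 shRNA under shear (right); dashed lines mark 1.2-fold, and 27 genes with a ratio beyond the axis in either comparison are not all drawn. C1qa and C1qb lie below the lower line on the left, and on the right C3 lies above the upper line and Cfb below the lower one.

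Set against the static control, the sheared Ift88 shRNA library shares a library with each comparison above, so its values are given side by side with them and add no separate evidence. C3 was 1.21 times the static control (1.18 to 1.24), beside 0.860 in the shear comparison and 1.41 in the Ift88 shRNA comparison. C5ar1 was at 1.01 times the static control (0.958 to 1.07), an interval that includes 1. C1qb was at 0.716 (0.655 to 0.782), C1qc at 0.851 (0.818 to 0.885) and C1qa at 0.912 (0.835 to 0.995). Cfb was at 0.507 (0.410 to 0.624), C3ar1 at 0.899 (0.882 to 0.917) and Cfp at 1.09 (1.06 to 1.11). At 1.2-fold, 1 of 8 members (C3) was higher and 2 of 8 (C1qb and Cfb) were lower, where 4.79% of all genes were that much higher and 4.48% that much lower.

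The rest of the complement system was read from a list of 51 further genes, all present in the table. Of these, 15 had a mean of at least 1 FPKM and 14 were listed at 0 in all 3 libraries. In the shear comparison 1 of the 15 was at least 1.2-fold lower and none higher, with a median log2 ratio of -0.063. In the Ift88 shRNA comparison none of the 15 reached 1.2-fold, with a median log2 ratio of 0.071. These shares can be read against the percentages of all genes given above.

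Of the 16 further classical and lectin genes listed, only 4 had a mean of at least 1 FPKM, and 3 were listed at 0 in all libraries. Those kept ranged from near 1 FPKM for C1rb to about the level of C1qa and C1qb for Colec12. C1ra, a protease that associates with C1q, was at 2.204 FPKM in the sheared Ift88 shRNA library, 2.31 in the sheared control and 2.07 in the static control, and its near copy C1rb was at 1.04, 1.15 and 1.13; reads may be split between these copies, so both values are uncertain. Fcna, which encodes ficolin A, a recognition protein of the lectin pathway, was at 11.6, 9.91 and 11.2 FPKM in the same libraries. The scavenger receptor gene Colec12 was at 28.7, 31.0 and 31.2 FPKM. Fcna with Ift88 shRNA was 1.17 times the sheared control (1.02 to 1.33), and Colec12 was 0.925 times (0.897 to 0.954).

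The next proteases and the terminal components lay low. C2, which pairs with C4 in the classical pathway, was at 0.439 FPKM in the sheared Ift88 shRNA library, 0.414 in the sheared control and 0.686 in the static control. Cfd, the protease that activates factor B, was listed at 0 in all 3 libraries. Of the 7 genes from Hc (complement C5) to C9, C6, C7, C8a and C8b were listed at 0 throughout, and only C8g passed 1 FPKM in a library, at 1.26 with Ift88 shRNA, 0.853 in the sheared control and 0.739 in the static control. C2, Cfd and the terminal genes fall outside the naming rule and were picked with their values in view.

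Beside the members C3ar1 and C5ar1, the list held further receptor genes for complement fragments. Of these, the integrin genes were abundant, while Vsig4, Cr2 and C5ar2 were low. Vsig4, a receptor for C3b, was listed at 0 in all 3 libraries, Cr2 stayed below 0.01 FPKM, and C5ar2, the other C5a receptor gene, was at 0.302 FPKM in the sheared Ift88 shRNA library, 0.178 in the sheared control and 0.359 in the static control; these were picked with their values in view. Itgb2, the shared beta chain of complement receptors 3 and 4, was at 346 FPKM in the sheared Ift88 shRNA library, 318 in the sheared control and 323 in the static control. Itgam, the alpha chain of complement receptor 3, was at 92.0, 78.2 and 85.2 FPKM, and Itgax, that of complement receptor 4, at 36.3, 30.9 and 34.3 FPKM. With Ift88 shRNA, Itgam was 1.18 times the sheared control (1.15 to 1.21) and Itgax 1.17 times (1.13 to 1.22), with Itgb2 at 1.09 (1.07 to 1.10). All 3 integrin genes were highest in the sheared Ift88 shRNA library and lowest in the sheared control, the same order as C3, Cfp and C5ar1. Fcna, Cd59a, Cd93 and Lrp1 showed that order too. The listed genes Colec12, Cr1l, C1qbp, Calr, Cd55, C1ra and C1rb did not, and neither did the members C1qa, C1qb, C1qc, C3ar1 and Cfb. The share of all genes with that order was not counted, so the order is not shown to be particular to these genes. For C5ar1, Fcna and Cd59a the interval against the static control includes 1, so their highest place is not resolved. In the shear comparison the intervals of Fcna (0.774 to 1.01) and Cd59a (0.829 to 1.08) also include 1, so the lowest place of Fcna and Cd59a is not resolved either.

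Proteins that bind C1q showed small differences. Cd93, a surface protein once described as a C1q receptor, was at 129 FPKM in the sheared Ift88 shRNA library, 119 in the sheared control and 124 in the static control. Calr, which encodes calreticulin, a chaperone that also binds C1q, was at 1029, 1031 and 1094 FPKM, and Lrp1, its partner in uptake, at 64.8, 61.7 and 63.1 FPKM. C1qbp, named for binding C1q and mainly mitochondrial, was at 55.1, 61.0 and 61.7 FPKM. In the Ift88 shRNA comparison these ratios lay between 0.903 for C1qbp and 1.08 for Cd93.

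Cd55 was the gene of the list that was at least 1.2-fold lower in the shear comparison. Cd55, which speeds the decay of the enzymes that cut C3, was at 1.36 FPKM in the sheared Ift88 shRNA library, 1.703 in the sheared control and 2.44 in the static control. The sheared control stood at 0.699 times the static control (0.558 to 0.869), and the Ift88 shRNA library at 0.801 times the sheared control, with an interval of 0.622 to 1.04 that includes 1. Cr1l, which encodes the mouse regulator Crry on cell surfaces, was at 43.2, 48.1 and 47.4 FPKM. Cd59a, which blocks the terminal pore, was at 9.77, 8.37 and 8.85 FPKM. For Cd59a the sheared control stood at 0.946 times the static control, with an interval of 0.829 to 1.08 that includes 1, and the Ift88 shRNA library at 1.17 times the sheared control (1.02 to 1.33).

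**Figure D4:**
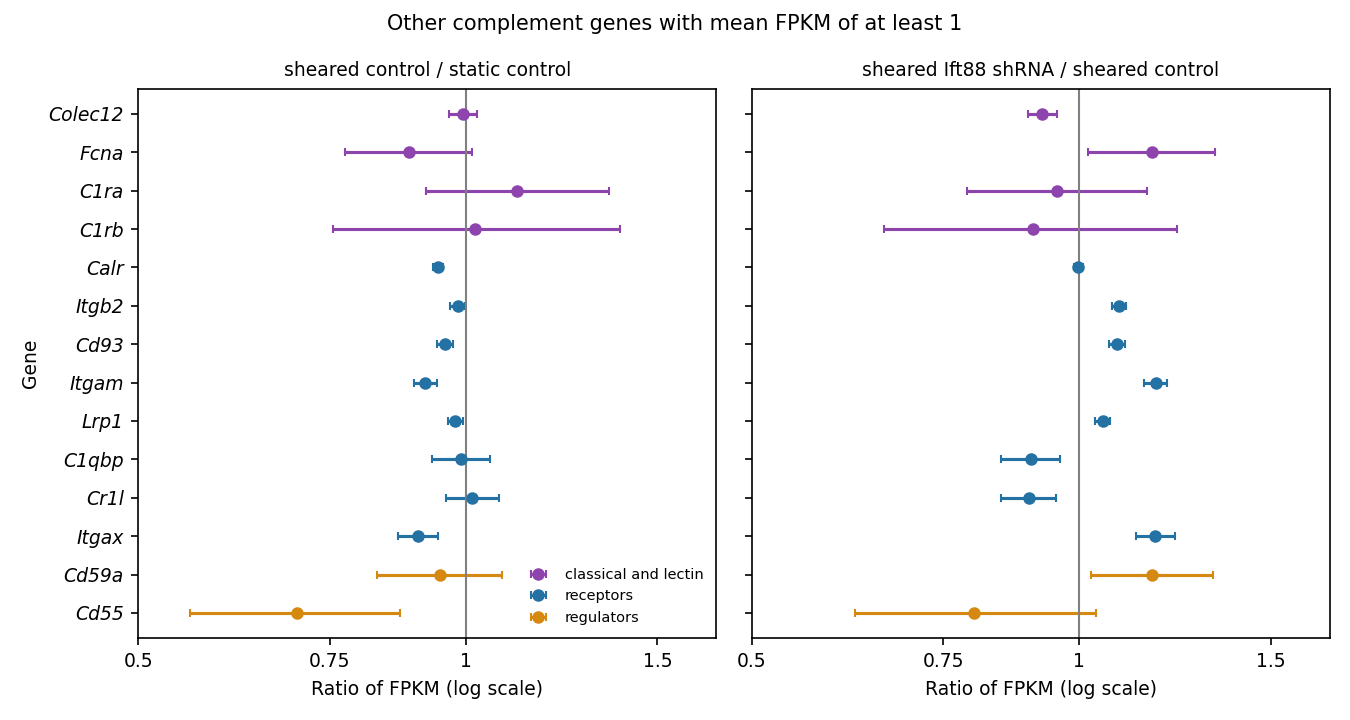
Ratio of FPKM (log axis) with 95% counting intervals for 14 of the 15 further complement genes with a mean of at least 1 FPKM, coloured by role, for shear (left) and Ift88 shRNA under shear (right). Cd55 at 0.699 lies lowest on the left, and on the right Itgam and Itgax lie above 1 with intervals that exclude it.

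The pattern of each member over the 3 libraries was compared with 7549 genes of at least 5 FPKM on average, by the Euclidean distance between their log2 ratios for shear and for Ift88 shRNA. For C3 the nearest genes were Acn9 (distance 0.052), Mmp14 (0.077), which encodes a membrane-bound matrix protease, and Nkain1 (0.082). No gene lay within 0.05 of C3. For Cfb the nearest were Gng11 (0.038), Wbp5 (0.067) and 2900097C17Rik (0.073), and 1 gene lay within 0.05. That likeness rests on the 1 FPKM added, which weighs on a gene as low as Cfb: with 0.1 added, a choice made after the data were seen, the log2 ratio of Cfb with Ift88 shRNA was -0.75 in place of -0.53 and its distance to Gng11 was 0.23. For C1qb they were the interferon-inducible GTPase gene Igtp (0.045), the chemokine gene Ccl6 (0.047) and Sp140 (0.048). For C1qa they were Tgm2 (0.035), which encodes a transglutaminase, Syne1 (0.046) and Gm14326 (0.048). Places also moved for C3, C1qb and C1qa: with 0.1 added, Acn9 was in place 4 for C3, Igtp in place 4 for C1qb and Gm14326 in place 34 for C1qa. The other named neighbours of C3, C1qb and C1qa stayed among the nearest 3. The likeness rests on 3 libraries and describes them only.

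Markers of the lineage and of other cells were read from marker lists. The 10 monocyte and macrophage markers summed to 32895 FPKM in the sheared Ift88 shRNA library, 31671 in the sheared control and 33304 in the static control, mostly Lyz2, and 1 of 9 kept was at least 1.2-fold lower in each of the shear and Ift88 shRNA comparisons. The 11 osteoclast markers, with Acp5 at 83.0, 52.9 and 97.7 FPKM, summed to 413, 339 and 445 FPKM. Of the 8 kept, 4 were at least 1.2-fold lower and 1 higher in the shear comparison. In the Ift88 shRNA comparison 5 were that much higher and none lower. Among all genes kept, 2.26% were that much lower and 1.94% higher in the shear comparison. In the Ift88 shRNA comparison 3.25% were that much higher and 2.29% lower. The osteoclast marker Acp5 was thus present in every library. Atp6v0d2, the highest of the list, was at 182 FPKM in the sheared Ift88 shRNA library, 199 in the sheared control and 211 in the static control. With Ift88 shRNA it was 0.914 times the sheared control, opposite to Acp5. Mmp9 was at 85.5, 39.3 and 70.3 FPKM and Ctsk at 18.5, 12.6 and 29.4 FPKM in the same libraries. Calcr and Ocstamp, genes of later osteoclasts, and Oscar stayed below 0.8 FPKM in every library. These lists do not by themselves settle the cell type.

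Neutrophil markers summed to 45.1 FPKM in the sheared Ift88 shRNA library, 43.4 in the sheared control and 77.6 in the static control. At 1.2-fold, 3 of 5 kept were lower in the shear comparison and 2 of 5 higher in the Ift88 shRNA comparison. Stromal and osteoblast markers summed to 9.73, 7.54 and 10.2 FPKM. At the same call 3 of 4 kept were lower in the shear comparison and 3 of 4 higher in the Ift88 shRNA comparison. These counts can be read against the shares of all genes just given. Dendritic markers summed to 23.9, 21.0 and 26.3 FPKM, nearly all from H2-Aa and H2-Ab1, with Flt3 listed at 0. At 1.2-fold, 2 of 2 dendritic markers kept were lower in the shear comparison and 1 of 2 higher in the Ift88 shRNA comparison, beside the same shares. Endothelial markers summed to 28.5, 26.8 and 28.6 FPKM, nearly all from Kdr and Vwf. Lymphoid markers stayed below 0.1 FPKM in sum, with Cd3e and Ms4a1 among those listed at 0. Hepatocyte markers stayed below 0.3 FPKM in sum, with Apoa1 and Ttr listed at 0. Apart from the lymphoid list, the sum of every list was lowest in the sheared control, as were C3, C5ar1, Cfp and C1qa, and the part of these markers in the complement values was not tested. The hepatocyte sum was nearly all Serpina1a, at an estimated 12, 9 and 10 fragments, so the order of that sum is not resolved.

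Transcript length and base composition also moved with the shear ratio. Over 10268 genes its Spearman correlation was -0.26 with transcript length and 0.34 with GC content, a description across genes of the same libraries. The C1q transcripts are short, at 1040 to 1203 bases, with 57.4% to 59.5% GC. After log2 ratios were centred within bins of genes of like length and GC content, a choice made after the data were seen, C1qa and C1qb were still at least 1.2-fold lower in the sheared control and C1qc also was, at -0.27 on the log2 scale. C3ar1 stood at 0.0011 after the same step, against -0.062 before it.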

How the data were processed

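The authors deposited FPKM per gene for 3 libraries, 1 per group. Per the submitters' processing notes, bcl2fastq 1.8.4, Trimmomatic 0.32, TopHat2 2.0.13, Cufflinks 2.2.1 and build mm10 were used. Their settings and the use of strand are not stated there. FPKM is a share of a library, so abundant genes move all others.

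Columns were matched to groups by title. Gene IDs gave coordinates in RefSeq GRCm38.p6 (23987 matched), and transcript lengths came from GENCODE M21. Depth was the value at which low FPKM of single-transcript genes over 1000 bases came nearest to whole fragments, using length minus 200 bases. Of values up to 10 fragments, 62.8% to 64.4% were whole within 0.1, so fragments are estimates and no count model was run. Genes with 2 transcripts used the shorter. Depth estimate, intervals and calls were tested on simulated data (Python 3.11.15, NumPy 2.4.6, pandas 2.3.3, SciPy 1.17.1). The simulation drew whole fragments with the same offset of 200 bases that the method assumes. It therefore checks the code and cannot show that the method holds for these libraries.

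Genes with mean FPKM of at least 1 were kept, and a call was at least 1.2-fold on log2(FPKM + 1). Alternatives were a pseudocount of 0.1, other filters, folds and scalings. The rule for named genes took all members, Ift88, listed complement genes with mean FPKM of at least 1, and the 3 nearest genes of each member past 1.2-fold. The members and lists were chosen with earlier results of these data known. A listed complement gene and a marker are counted in their lists but not reported here.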

Additional observations from a re-analysis of the deposited data

How the results depend on the processing

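No paired analysis was possible because each group held 1 library, and no library could be left out for the same reason. C1qa and C1qb were at least 1.2-fold lower with shear, and Cfb at least 1.2-fold lower and C3 higher with Ift88 shRNA, under each alternative pseudocount, scaling and centring run. The count of members higher with Ift88 shRNA was 2, C5ar1 being added, with a pseudocount of 0.1 and with an equal sum of FPKM. Against the static control it was 0 after centring for length and GC content, where C3 stood at 0.24 on the log2 scale; the cause was not tested. No called member reversed.

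Counts over all genes moved with the threshold, the filter and the scaling. The main counts were 201 higher and 234 lower for shear, against 171 and 280 with an equal sum of FPKM and 238 and 211 when centred on the median gene, where the balance turned. For Ift88 shRNA 337 and 237 became 455 and 190, and 297 and 271, under the same scalings. With a pseudocount of 0.1 they were 336 higher and 435 lower for shear, and 564 and 376 for Ift88 shRNA. With a mean of at least 5 FPKM they were 111 and 111 for shear, 159 and 153 for Ift88 shRNA, and 310 and 298 for sheared Ift88 shRNA over static control. At 1.5-fold these comparisons gave 17 and 30, 29 and 21, and 35 and 42, and at 2-fold 12 and 17, 8 and 7, and 9 and 13. In the further complement list the single gene lower with shear, and lower against the static control, was 0 with a mean of at least 5 FPKM, at 1.5-fold and at 2-fold. That list gave 1 lower with Ift88 shRNA with a pseudocount of 0.1, 1 higher with an equal sum of FPKM, and 1 higher with no filter on low values, with Ift88 shRNA and against the static control.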

Other observations

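Of the pairs of complement genes compared within a library, C3 and Cfb differed most in balance, which restates the values above. C3 over Cfb, as a ratio of FPKM, was 63.4 in the sheared Ift88 shRNA library, 26.1 in the sheared control and 26.6 in the static control. C3 over its receptor gene C3ar1 was 0.7495, 0.4998 and 0.557 in the same libraries. C3ar1 over C5ar1 was 4.22 with Ift88 shRNA, against 5.41 in the sheared control and 4.76 in the static control. The alpha chain genes of complement receptors 3 and 4 kept nearly the same balance, with Itgam over Itgax at 2.53, 2.53 and 2.49. Summed over the 8 members, FPKM was 847, 782 and 852, of which Cfp made up 46.4%, 44.6% and 42.5%.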
